A study of Homo sapiens with 4 samples.

Results

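The Notch receptors NOTCH1, NOTCH2 and NOTCH3, their ligands JAG1, JAG2 and DLL1, and the target genes HES1, HES4, HEY1 and HEY2 were followed in the glioblastoma (GBM) cell lines U251 and U87. These 10 genes were taken by their symbols from the 58735 genes listed in the expression files. RNA had been sequenced from U251 and U87 cells labelled Control and from the same lines after 48 h of brusatol (Bru). Bru is a quassinoid from plants studied as an inhibitor of protein synthesis and of NRF2. Whether the Control cells received DMSO, the solvent of Bru, is not given for the sequencing. The paper states that Bru was used at the IC50, without naming the doses of the sequenced cells. In its viability assays over time it used a higher dose in U251 than in U87. Dose and line therefore cannot be told apart. There were 4 libraries, namely U251 Control, U251 Bru, U87 Control and U87 Bru, with 1 library per condition. The labels name no genetic change or second agent, and both lines are established tumour lines grown in culture.

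Notch receptors are cut after a ligand on a neighbouring cell binds them, and the freed intracellular part joins the DNA-binding protein RBPJ and a MAML co-activator to switch on target genes. The best known targets are the HES and HEY genes, which encode basic helix-loop-helix repressors, and HES1 protein also represses its own gene. In the nervous system this pathway holds neural progenitors back from becoming neurons and favours glial fates, and in gliomas it is known for its part in stem-like cells.

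Of the 6 genes that passed a filter on low values, HES1 alone was past 2-fold with Bru in U87, at 2.59 times the Control library, while in U251 it was high and nearly level. NOTCH3, under that filter, was at 3.73 times Control in U87 on 17 and 61 reads. HES4 and HEY1 were lower with Bru in U251, at 0.516 and 0.587 times Control. The well-expressed receptors and ligands NOTCH1, NOTCH2 and JAG1 moved little, between 0.926 and 1.17 times Control in the 2 lines. Without Bru, all 6 genes that passed the filter were at a higher level in U251 than in U87, against 6527 of the 12949 genes that passed it. HES4 passed it through its U251 levels. Of all 10 genes, 8 were higher in U251.

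With 1 library per condition there was no replicate check, and no p-value was computed. Levels are given in FPKM (fragments scaled to the length of the gene and to a size set for the library), together with the reads recovered from them. That size was not the count of reads on genes. The count was 1.02 and 0.963 times the size in U251 Control and Bru, and 1.01 and 0.981 times in U87 Control and Bru. Each library held 17083896 to 21453561 reads on genes, 2.43% to 4.06% of them from mitochondrially encoded genes, and on a gene of 1 kilobase 3 reads made an FPKM between 0.143 and 0.172. Bru was compared with Control on log2 values of FPKM + 0.1, which understates differences of weakly expressed genes. The ratio of the FPKM themselves is given with a 95% exact Clopper-Pearson interval from the reads, which covers counting error only and compares these libraries, not the conditions. A gene counted as tested when its mean FPKM over the 4 libraries was at least 1, and as past 2-fold when the log2 ratio of FPKM + 0.1 was above 1 or below -1. Of the 10 Notch genes, 6 were tested (NOTCH1, NOTCH2, JAG1, HES1, HES4 and HEY1), and the other 4 (NOTCH3, JAG2, DLL1 and HEY2) lay under the filter.

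The sites at which RBPJ can bind are short, so the promoters of the targets are shown first. Promoters of 300 bases, from 250 bases before to 50 bases after the RefSeq start on GRCh38.p14, were at hand for 8 of the 10 genes. The core letters of the RBPJ motif, TGGGAA, were searched on both strands. They occurred in the promoters of all 3 targets at hand (HES1, HES4 and HEY2) and in 0 of the 5 receptor and ligand promoters, against 24.0% of 35116 promoters of this length. The longer form GTGGGAA, which contains the core, was found in the same 3 promoters and in 6.25% of all. Each sequence runs 5′ to 3′ in the direction of its gene, with TGGGAA, or TTCCCA where the match is on the other strand, in capitals.
HES1 (chr3:194135898-194136197, plus strand): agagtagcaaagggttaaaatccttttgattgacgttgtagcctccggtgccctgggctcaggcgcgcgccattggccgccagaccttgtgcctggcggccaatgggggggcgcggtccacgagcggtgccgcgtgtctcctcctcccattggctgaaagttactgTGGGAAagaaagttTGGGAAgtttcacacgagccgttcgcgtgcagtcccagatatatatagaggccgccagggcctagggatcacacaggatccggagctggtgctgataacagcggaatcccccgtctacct
HES4 (chr1:1000048-1000347, minus strand): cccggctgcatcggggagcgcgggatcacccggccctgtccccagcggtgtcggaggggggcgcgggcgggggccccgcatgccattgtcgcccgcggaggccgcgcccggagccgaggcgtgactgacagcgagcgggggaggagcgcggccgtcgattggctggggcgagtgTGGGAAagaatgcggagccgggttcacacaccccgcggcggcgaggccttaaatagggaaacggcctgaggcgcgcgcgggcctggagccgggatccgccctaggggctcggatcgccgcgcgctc
HEY2 (chr6:125749382-125749681, plus strand): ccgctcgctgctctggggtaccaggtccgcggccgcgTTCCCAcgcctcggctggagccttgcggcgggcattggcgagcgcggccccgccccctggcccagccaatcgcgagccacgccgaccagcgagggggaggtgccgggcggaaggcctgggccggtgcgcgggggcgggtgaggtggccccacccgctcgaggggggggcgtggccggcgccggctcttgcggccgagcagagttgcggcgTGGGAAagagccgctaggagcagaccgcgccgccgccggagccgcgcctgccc

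In HES1 the core began at positions -84 and -70 from the start, both on the gene's strand, and in HES4 it began at -76. The longest run shared by the HES1 and HES4 promoters was tgTGGGAAagaa, of 12 bases, which lay at -86 in HES1 and at -78 in HES4. HEY2 held the core at -213 on the other strand and at -3 on its own strand, and this RefSeq start of HEY2 lies inside the gene as the expression files place it. The N box CACNAG, at which HES proteins can bind, was present in the promoters of HES1 (4 matches), NOTCH1 (2), NOTCH2 (1) and NOTCH3 (1) and in 0 of those of HES4, HEY2, JAG1 and JAG2, against at least 1 match in 38.0% of all promoters. A match of letters is a description of the sequence, and it does not show that a protein was bound in these cells.

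HES1 (ENSG00000114315, chromosome 3 from 194136145 to 194138732, GRCh38) encodes the repressor that is the classical readout of Notch signalling. In U251 its FPKM was 76.3 without and 79.2 with Bru, and in U87 it was 3.22 without and 8.33 with Bru, from 3300, 3025, 120 and 299 reads. Both U251 libraries were thus high and close to each other, and both U87 libraries were low, with the Bru library above the Control library. In U87 the Bru level was 2.59 times the Control level (interval 2.09 to 3.22), or 1.34 as a log2 ratio of FPKM + 0.1. This placed HES1 at rank 150 from the highest of 12949 tested genes in U87. In U251 the log2 ratio was 0.05 (interval -0.02 to 0.12 without the added 0.1). Scaled to reads on genes instead, the U251 ratio was 0.14, above that interval. The difference of the log2 ratios, U251 minus U87, was -1.29 on FPKM + 0.1 and -1.32 (interval -1.64 to -0.999) on FPKM.

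HES4 (ENSG00000188290, chromosome 1 from 998962 to 1000172), a HES family repressor that humans have and mice lack, had FPKM values of 28.1 without and 14.5 with Bru in U251, and of 0.693 without and 1.23 with Bru in U87, from 660, 301, 14 and 24 reads. In U251 the Bru library held 0.516 times the Control level (interval 0.449 to 0.592), and the log2 ratio of FPKM + 0.1, -0.95, was just short of the 2-fold limit. In U87 the log2 ratio pointed the other way, at 0.75, but with so few reads its interval on FPKM ran from -0.18 to 1.90, so the depth did not allow a difference to be seen. The difference between the lines was -1.70 on FPKM + 0.1 and -1.79 (interval -2.87 to -0.75) on FPKM.

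HEY1 (ENSG00000164683, chromosome 8), a repressor that acts downstream of Notch in vessels, heart and neural progenitors, was measured at 5.15 FPKM without and 3.02 with Bru in U251, and at 1.59 without and 1.83 with Bru in U87, from 349, 181, 93 and 103 reads. It was lower with Bru in U251, at 0.587 times Control (interval 0.488 to 0.704), a log2 ratio of -0.75 on FPKM + 0.1. In U87 the log2 ratio was 0.19, with an interval of -0.22 to 0.62 on FPKM. The difference between the lines was -0.94 on FPKM + 0.1 and -0.97 (interval -1.47 to -0.47) on FPKM. HES1, HES4, HEY1 and HEY2 share no stretch of 50 bases with another gene in the transcripts of GENCODE 29, so their reads were not open to division among copies.

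HEY2 (ENSG00000135547, chromosome 6 from 125747664 to 125761269), known for its role in heart and artery development, was low, with an FPKM of 0.191, 0.394, 0.585 and 0.796 in the order U251 Control, U251 Bru, U87 Control and U87 Bru. These values came from 11, 20, 29 and 38 reads. Of the 4 targets, HEY2 alone had a higher level in U87 than in U251, at 3.06 times in the Control libraries (interval 1.48 to 6.79). Its Bru to Control ratio was above 1 in both lines, but both intervals included 1, from 0.940 to 4.75 in U251 and from 0.817 to 2.29 in U87.

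**Figure D1:**
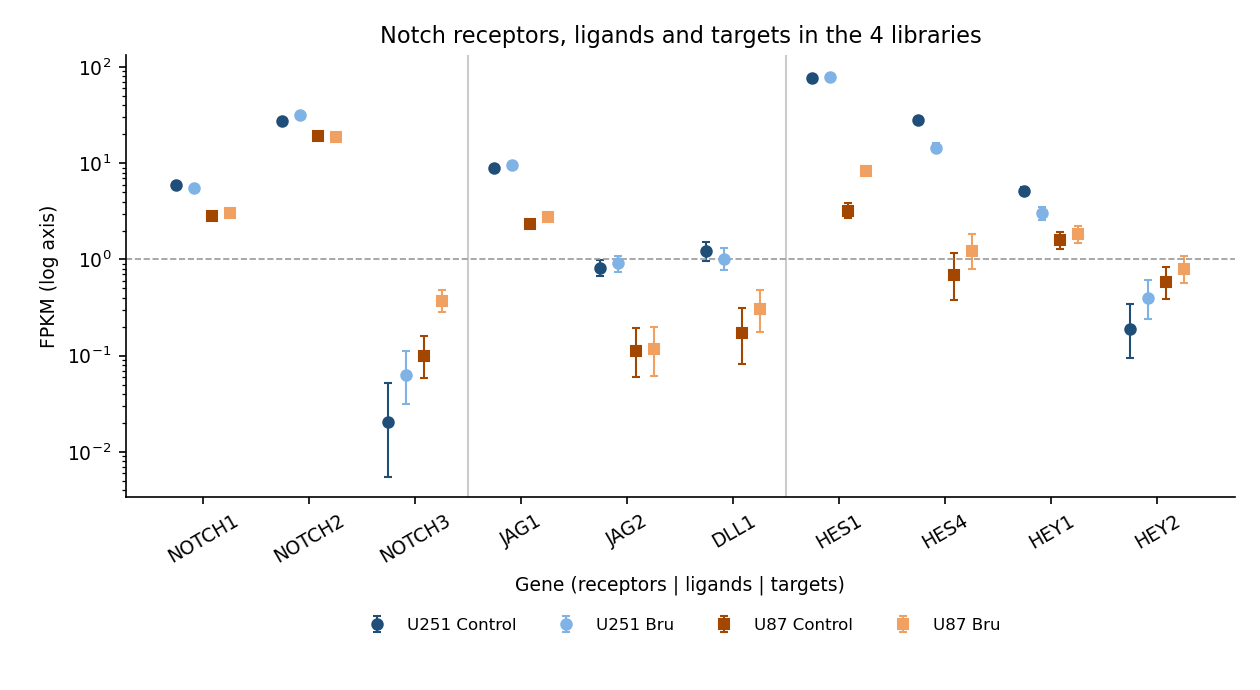
FPKM of the 10 Notch genes in the 4 libraries on a log axis, grouped as receptors, ligands and targets, with 1 point per library and bars for the 95% Poisson counting interval of the reads. The dashed line marks an FPKM of 1. HES1 lay at 76.3 and 79.2 in U251 and at 3.22 and 8.33 in U87, and NOTCH2 lay between 18.9 and 31.4 in all 4 libraries.

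Among the receptors, NOTCH2 carried most of the expression. NOTCH2 (ENSG00000134250, chromosome 1 from 119911553 to 120069626) was measured at 27.3 FPKM without and 31.4 with Bru in U251, and at 19.2 without and 18.9 with Bru in U87, from 9631, 9777, 5835 and 5529 reads. It made up 81.9% of the summed FPKM of the 4 NOTCH receptor genes in U251 Control and 85.8% in U87 Control. NOTCH2 shares 23.4% of its stretches of 50 bases with other genes, among them its partial copy NOTCH2NLA, so the division of reads between them is uncertain. NOTCH2NLA itself was listed between 0.0803 and 0.281 FPKM. The log2 ratio of NOTCH2 was 0.20 in U251 (interval 0.16 to 0.24 on FPKM) and -0.02 in U87 (interval -0.08 to 0.03), and the sign in U87 changed under another scaling.

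NOTCH1 (ENSG00000148400, chromosome 9 from 136494433 to 136545786) had FPKM values of 5.92 without and 5.49 with Bru in U251, and of 2.81 without and 3.06 with Bru in U87, from 1289, 1055, 527 and 553 reads. The log2 ratio of NOTCH1 came to -0.11 in U251 and 0.12 in U87, and both counting intervals on FPKM included 0, from -0.23 to 0.01 and from -0.05 to 0.30. NOTCH3 (ENSG00000074181, chromosome 19 from 15159038 to 15200981), the receptor of vascular smooth muscle and pericytes, was low throughout, with an FPKM of 0.0203 and 0.0632 in U251 Control and Bru and 0.1001 and 0.373 in U87 Control and Bru, from 4, 11, 17 and 61 reads. In U87 the Bru library held 3.73 times the Control level of NOTCH3 (interval 2.15 to 6.80), although both values stayed far under the filter of 1. NOTCH4, the receptor of endothelium, was listed at 0.0886 to 0.277.

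JAG1 (ENSG00000101384, chromosome 20 from 10637684 to 10673999) was the main ligand, at 8.97 FPKM without and 9.60 with Bru in U251, and at 2.35 without and 2.75 with Bru in U87, from 1749, 1654, 394 and 445 reads. It accounted for 76.3% to 88.1% of the summed FPKM of JAG1, JAG2, DLL1, DLL3 and DLL4. The JAG1 level with Bru was 1.07 times Control in U251, where the lower interval bound touched 1, and 1.17 times in U87 (interval 1.02 to 1.35). Counting error for the difference between the lines spanned 0, from -0.35 to 0.09.

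JAG2 (ENSG00000184916, chromosome 14 from 105140981 to 105168824) had an FPKM of 0.812 and 0.911 in U251 Control and Bru and of 0.112 and 0.117 in U87, from 109, 108, 13 and 13 reads. DLL1 (ENSG00000198719, chromosome 6 from 170282206 to 170306565), a Delta ligand of neural progenitors, had 1.21 and 1.02 in U251 and 0.172 and 0.303 in U87, from 82, 61, 10 and 17 reads. JAG2 shares 6.53% of its stretches of 50 bases with AL512356.1, which had 0 reads in all libraries. Both ligands were thus higher in U251 than in U87, and for both genes the Bru to Control intervals included 1 in each line. DLL3 was listed at 0.728 and 0.824 in U251 and at 0.0211 and 0.0878 in U87, and DLL4 had at most 9 reads in any library.

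In the Control libraries, all 6 tested Notch genes were lower in U87 than in U251, and 5 of the 6 were past 2-fold lower, all but NOTCH2. Over all 12949 tested genes, 16.0% were past 2-fold lower in U87 Control than in U251 Control and 14.5% were past 2-fold higher, 30.4% in all. The counting interval of this ratio excluded 0 for all 10 Notch genes, and so for all 6 tested, against 81.0% of the tested genes. Over all 10, the log2 ratio was below 0 for 8 and above 0 for NOTCH3 and HEY2. Over all tested genes, 6527 were below 0 and 6417 above. HES4 passed the filter through its U251 levels, so a difference was built into its count. The median log2 ratio of the 6 genes, U87 over U251, was -1.76, against -0.01 over all tested genes. The level in U251 Control was 40.6 times that in U87 Control for HES4 (interval 24.0 to 74.7) and 23.7 times for HES1 (interval 19.7 to 28.7). For JAG1 it was 3.82 times, for HEY1 3.23 times, for NOTCH1 2.11 times and for NOTCH2 1.42 times. Of the 6 genes, HES4 and HES1 thus had the largest ratios between the Control libraries. Line, culture and library cannot be told apart here, and neither can fewer transcripts per cell and fewer cells that express a gene.

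The order of the levels, read on FPKM scaled to the gene lengths of the files, differed between the lines. It depends on those lengths, and the place of NOTCH2 also on its shared stretches. The intervals of this order cover counting error only. In U251 Control HES1 was highest, followed by HES4 and NOTCH2, and the ratio of HES4 to NOTCH2 had an interval of 0.951 to 1.11. In U87 Control NOTCH2 was highest, followed by HES1 and NOTCH1, and the ratio of HES1 to NOTCH1 had an interval of 0.932 to 1.40. With Bru, NOTCH2 passed HES4 in U251, by 1.93 to 2.43 times, and HES1 moved clear of NOTCH1 in U87, by 2.36 to 3.14 times. At the low end, NOTCH3 was the lowest gene in both U251 libraries, and in U87 Control the neighbours DLL1 and JAG2, and JAG2 and NOTCH3, did not differ beyond counting error. The same held for HES4 and HEY2 in both U87 libraries, for DLL1 and JAG2 in U251 Bru, and for NOTCH1 and JAG1, HEY1 and HES4, and NOTCH3 and DLL1 in U87 Bru.

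Summed over HES1, HES4, HES5, HEY1, HEY2 and HEYL, the targets reached 109.8 FPKM without and 97.1 with Bru in U251, and 6.09 without and 12.2 with Bru in U87. HES5 and HEYL contributed nothing, since both had 0 reads in all libraries. In the shallowest library, U87 Bru, the Poisson counting interval of 0 reads reached an FPKM of 0.162 for HES5 and 0.0579 for HEYL. The sum with Bru was 0.884 times Control in U251 and 2.001 times in U87. The receptor sum with Bru was 1.11 times Control in U251 and 1.01 times in U87, and the ligand sum was 1.06 and 1.22 times. The target sum of U251 was 18.02 times that of U87 in the Control libraries and 7.96 times in the Bru libraries. HES1 made up 69.5% of the target sum in U251 Control and 81.5% in U251 Bru, while HES4 made up 25.6% and 15.0%. In U87 HES1 made up 52.9% in Control and 68.3% with Bru. Of these targets in U87, HES1 alone had a Bru to Control ratio whose counting interval excluded no difference.

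**Figure D2:**
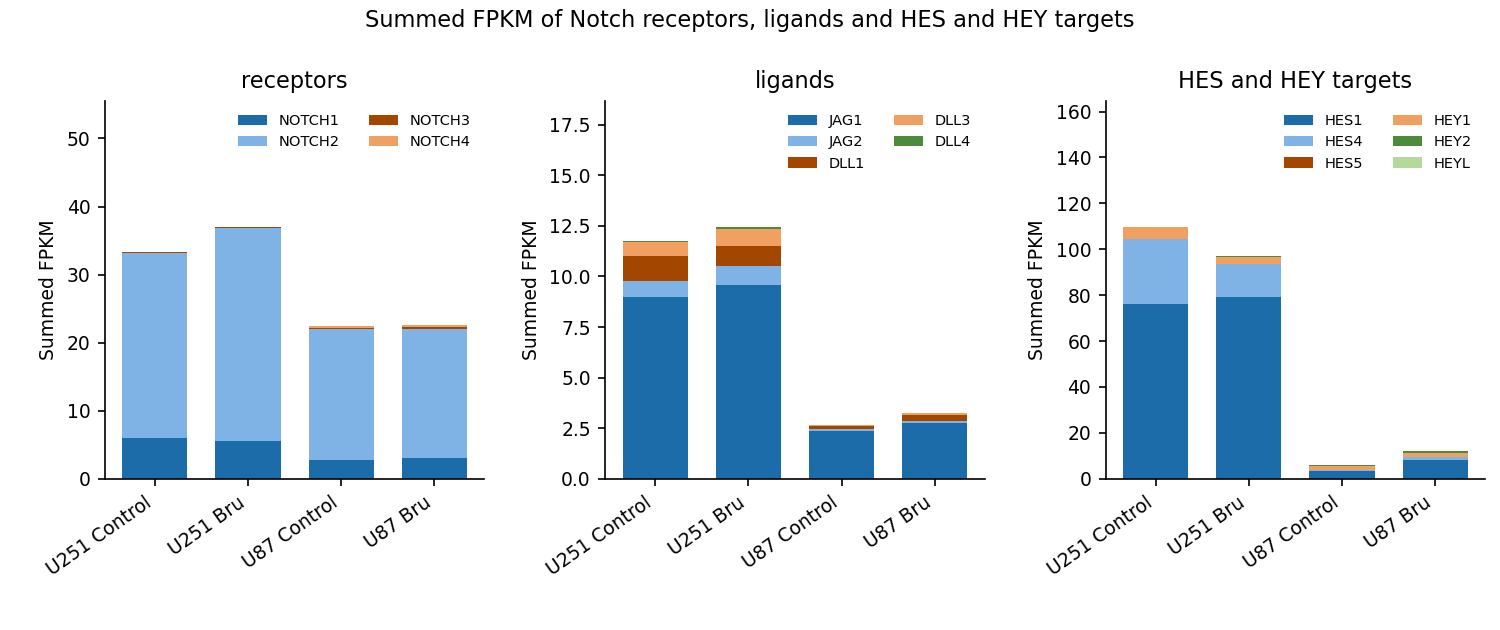
Summed FPKM of the receptor genes, the ligand genes and the HES and HEY target genes in the 4 libraries, as stacked bars from 0 with 1 colour per gene and a separate axis for each panel. The receptor sums lay between 22.4 and 37.0, while the target sums were 109.8 and 97.1 in U251 and 6.09 and 12.2 in U87.

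Across the Notch genes, the Bru to Control comparison gave few large differences. In U251, 0 of the 6 tested genes were past 2-fold, against 8.80% of all tested genes. In U87, 1 of 6 was past 2-fold, HES1, which was higher with Bru, against 3.34% of all tested genes, 1.92% higher and 1.41% lower. These shares stand for 249 and 183 genes, and the balance turned among protein-coding genes, to 32 higher and 64 lower, and at a mean FPKM of at least 5, to 38 and 45. The median log2 ratio of the 6 genes was -0.03 in U251 and 0.21 in U87, and over all tested genes it was -0.03 and -0.04. Over all 10 genes, including those under the filter, 6 were above 0 and 4 below in U251, and 9 were above and 1 below in U87. Over all tested genes, 6110 were above and 6741 below in U251, and 5474 above and 7337 below in U87. The gene below 0 in U87 was NOTCH2, whose sign changed with scaling. On the FPKM as deposited, the counting interval excluded 0 for 4 of the 10 in U251 (NOTCH2, JAG1, HES4 and HEY1). It did so for 3 of the 10 in U87 (NOTCH3, JAG1 and HES1). The shares over all tested genes were 66.7% and 43.7%, and these leave out genes under the filter, such as NOTCH3, JAG2, DLL1 and HEY2. These lists depend on the scaling, since the ratio of HES1 in U251 moved above its interval under other scalings.

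**Figure D3:**
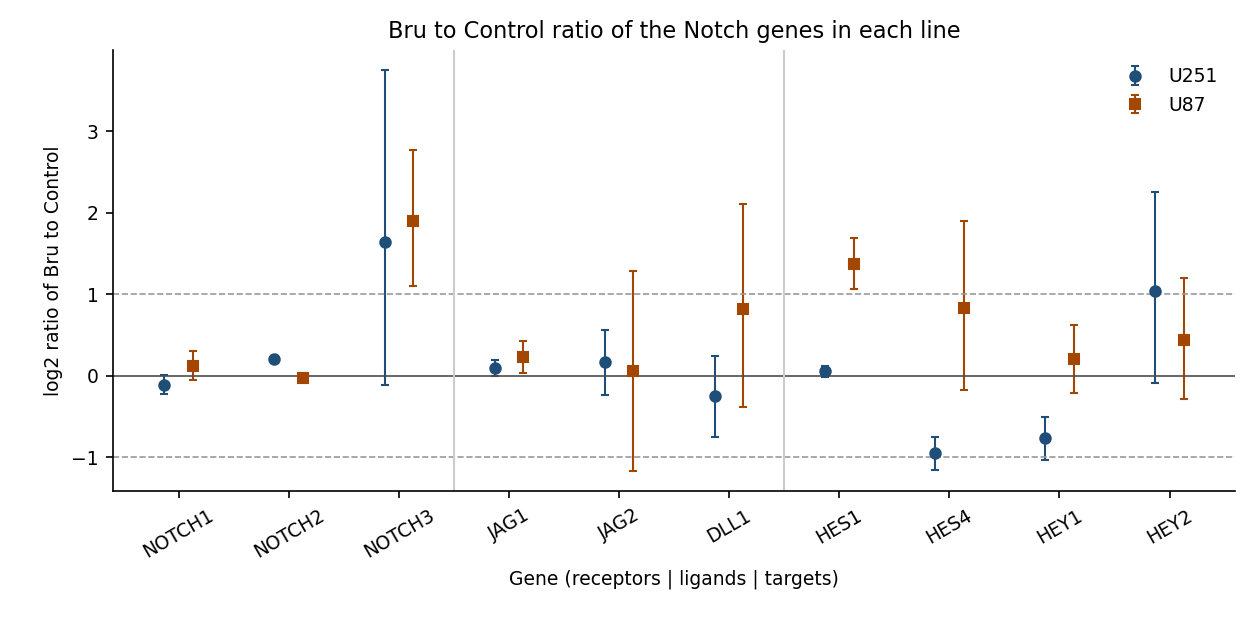
Log2 ratio of Bru to Control of the FPKM, without an added constant, for the 10 Notch genes in U251 and U87, with 95% exact Clopper-Pearson counting intervals as bars. Dashed lines mark 2-fold. HES1 was at 1.37 in U87 with an interval of 1.06 to 1.69, and HES4 and HEY1 were below 0 in U251, at -0.95 and -0.77.

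The 2 lines were also set against each other directly. The Bru doses of the sequenced cells are not given, so dose and line cannot be told apart in this comparison. The log2 ratios of 4 of the 6 tested genes had opposite signs in the lines (NOTCH1, NOTCH2, HES4 and HEY1), against 32.6% of all tested genes. For NOTCH2 this rested on a sign in U87 that changed under most other scalings. For 0 of the 6 did both counting intervals also exclude 0, against 5.14% of all. The ratio differed past 2-fold between the lines for HES1 and HES4, 2 of 6, against 8.49% of all. By a large-sample counting interval, the difference excluded 0 for 5 of 6, against 51.0% of all. The levels of the lines lay closer together with Bru than without for HES1, HES4, HEY1 and NOTCH1 beyond counting error, and for JAG1 within it. The U251 level was 9.50 times the U87 level for HES1, 11.8 times for HES4 and 1.65 times for HEY1 in the Bru libraries. For NOTCH1 and JAG1 this fold was 1.79 and 3.49. For NOTCH2 the lines moved apart, to 1.66 times.

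Beside the Notch genes, 80 other pathway genes were grouped by role, of which 63 were tested. In U251, 2 of the 63 were past 2-fold higher and 4 past 2-fold lower, against 3.36% and 5.44% of all tested genes, or 435 and 705 genes. With the FPKM rescaled to the reads on genes, the latter were 551 and 576, and EGFL7 was no longer past 2-fold. DLK2, counted among the higher pathway genes, passed the filter only through its U251 Bru level. In U87, 0 of the 63 were past 2-fold in either direction, against 3.34% of all tested genes, and 59 of the 63 had more than 3 reads in both U87 libraries. The median log2 ratio of the 63 genes was -0.07 in U251 and -0.06 in U87. Between the Control libraries, U87 over U251, 33 of the 63 were above 0 and 30 below, with a median log2 ratio of 0.07. Past 2-fold there were 7 higher and 13 lower in U87 Control, against 14.5% and 16.0% of all tested genes.

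Among the relatives of HES and HEY, HES7, a repressor of the segmentation clock, had an FPKM of 3.88 and 11.8 in U251 Control and Bru, a log2 ratio of 1.57 (interval 1.33 to 1.88 on FPKM), and of 2.25 and 3.44 in U87, a log2 ratio of 0.59. HES6, which opposes HES1 and favours neuronal differentiation, was lower with Bru in both lines, from 7.26 to 3.92 in U251 and from 11.0 to 6.23 in U87, log2 ratios of -0.87 and -0.81, with intervals on FPKM of -1.18 to -0.60 and -1.06 to -0.58. These 2 were the tested genes of their group. HES3 had 0 reads in all libraries.

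The 4 pathway genes past 2-fold lower in U251 were a pair of targets, a ligase and a non-canonical ligand. CCND1 (cyclin D1, which drives entry into the cell cycle) had an FPKM of 132.9 in Control and 44.0 with Bru, from 13465 and 3940 reads, and 10.3% of its exon bases overlap LTO1 on the other strand. In U87 it had 152.9 and 141.3. FABP7, a lipid-binding protein of radial glia, was at 8.27 and 2.04 in U251 and had at most 1 read in U87. NEURL1B, a ubiquitin ligase acting on Notch ligands, was at 3.05 and 1.13 in U251 and at 4.97 and 4.68 in U87. EGFL7, a secreted protein that can bind Notch receptors, was at 4.54 and 2.11 in U251 and had at most 2 reads in U87.

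Of the non-canonical ligands, DLK2 was past 2-fold higher in U251, from 1.17 to 2.70, on 55 and 112 reads. It had 0.346 and 0.488 in U87 Control and Bru and passed the filter only through its U251 Bru level. Being higher with Bru was thus partly built into its count. MFAP2 had the largest ratio in U87, from 10.3 to 6.03, a log2 ratio of -0.77. Among the 9 enzymes and subunits of receptor processing, all tested and 0 past 2-fold in either line, against 8.80% of all tested genes in U251 and 3.34% in U87, the largest ratios were those of ADAM10, the protease of the first cut after ligand binding, at 8.89 and 4.63 in U251, and of FURIN, which cleaves the receptor on its way to the surface, at 36.4 and 28.2 in U87. The medians of this group were -0.49 in U251 and -0.10 in U87. Of the glycosylation enzymes, POFUT1 had the largest ratio in U251, at -0.43, and POGLUT1 in U87, at -0.39.

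In the nucleus, the acetyltransferase KAT2B stood at the limit in U251, with a log2 ratio of -0.999 and an FPKM of 13.0 and 6.47, and at -0.43 in U87. Among the 14 tested repressors, FHL1 had the largest ratio in U251, at -0.92, and L3MBTL3 in U87, at -0.62. Of the 15 tested genes of turnover and trafficking, NUMBL had the largest ratio in U87, at -0.19. NRARP, a target that feeds back on Notch, was at 2.83 and 2.53 in U251, from 105 and 83 reads, and at 0 reads in both U87 libraries, which makes its U251 level at least 30.2 times higher in Control and at least 26.0 times higher with Bru, computed against 3 reads per U87 library. SNAI2 had the largest ratio among the other targets in U87, at 0.36. Between the lines SNAI2 went the other way from NRARP, at 2.39 and 4.15 in U251 Control and Bru and at 33.1 and 42.4 in U87.

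**Figure D4:**
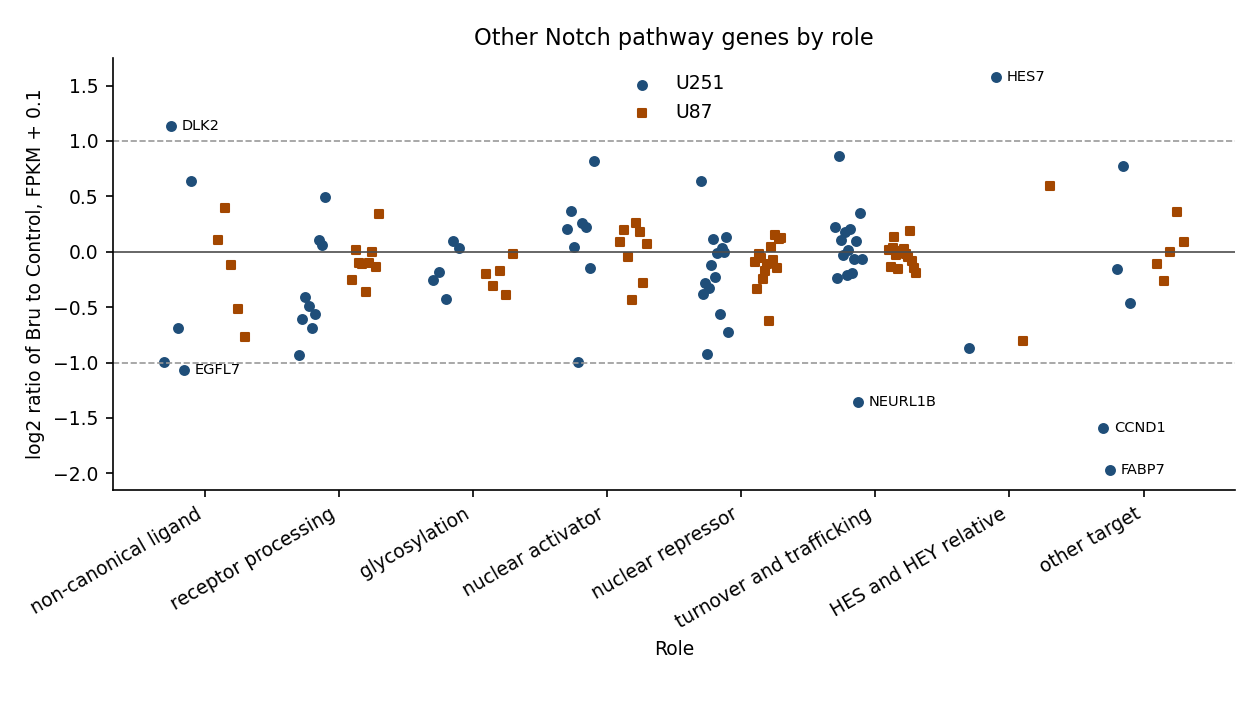
Log2 ratio, on FPKM + 0.1, of Bru to Control for the 63 tested pathway genes outside the 10 Notch genes, by role, with 1 point per gene and line. Dashed lines mark 2-fold, and the genes past it are named. All 6 named points are of U251, from FABP7 at -1.97 to HES7 at 1.57, and the U87 points lay between -0.81 and 0.59.

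The lines differed in some glial markers as well as in Notch targets. SOX2, a transcription factor of neural stem cells, was at an FPKM of 128.8 and 91.2 in U251 Control and Bru and had at most 2 reads in U87. S100B, SOX2 and FABP7 were at or under 3 reads in both U87 libraries, and FABP7 is also one of the pathway's targets. S100B had 0 reads in U251 Bru as well, and OLIG2 went the other way, with 2 and 4 reads in U251 and 38 and 61 in U87. The summed FPKM of the 9 astroglial or glioma markers was 1162 without and 896.9 with Bru in U251, and 802.4 without and 762.4 with Bru in U87, most of it from VIM. NES (nestin) was lower with Bru in both lines, at 125.1 and 50.6 in U251 and at 1.46 and 0.569 in U87. The sum of the 3 neuronal markers was 12.7 and 5.40 in U251 and 2.63 and 1.71 in U87. Nearly all of it was MAP2, at 12.5, 5.19, 2.36 and 1.33, while SYP was higher in U87, at 0.137, 0.176, 0.244 and 0.342. The endothelial, leukocyte and epithelial marker sums were under 1 in every library, and the 2 mural markers counted summed to 0.749 to 3.999. The part of these differences in the Notch target levels was not tested.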

How the data were processed

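RNA had been extracted with Trizol, made into libraries with a NEB Next Ultra kit and sequenced, per the labels. The authors deposited FPKM per gene with the gene lengths used. The submitters' processing notes name HISAT2 2.0.5, StringTie 1.3.3b, featureCounts 1.5.0-p3, DESeq2 1.16.1, and hg18 as the build. The coordinates of all 58735 genes, however, equal those of GENCODE 29 (GRCh38), which were used here. Strand use in counting is not given in the sources used here. FPKM times length was a whole multiple of 1 step for 100% of values (tolerance 0.01 reads), which gave the reads per gene and the library size behind them. The 4 libraries were grouped by their labels. Log2 ratios, intervals and counts were computed with Python 3.11.15, numpy 2.4.6, pandas 2.3.3 and scipy 1.17.1, and tested on simulated data. The difference between lines has a conditional exact interval for single genes and a large-sample interval of the log odds ratio for counts over all genes. Shared stretches of 50 bases were searched in GENCODE transcripts, and promoters came from RefSeq.

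The Notch genes, gene lists and comparisons were chosen with earlier results of these data known. Named were all Notch genes, the remaining family members, pathway genes past 2-fold and the gene with the largest ratio in each role and line. Also named, chosen after their values were seen, were HES3, NRARP, the astroglial or glioma markers, MAP2 and SYP. RGS5 was left out of the mural markers because it has 2 gene IDs. Alternatives were other pseudocounts, filters, scalings and a rule on the interval.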

Additional observations from a re-analysis of the deposited data

Results flagged for a closer look

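For 5 Notch genes the Bru to Control log2 ratio, on FPKM + 0.1, differed between the lines by more than counting error. The difference, U251 minus U87, was -1.29 for HES1, -1.70 for HES4, -0.94 for HEY1, -0.23 for NOTCH1 and 0.22 for NOTCH2. With 1 library per condition, the spread between replicates is unknown and the difference between the lines was not tested beyond counting error. Line and Bru dose cannot be told apart either. A large-sample counting interval of this difference excluded 0 for 51.0% of all tested genes, so that exclusion alone does not set these genes apart. HES4 in U87 rested on 14 and 24 reads. The NOTCH2 difference also carries the uncertainty of its shared stretches.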

How the results depend on the processing

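HES1 in U87 stayed past 2-fold under every alternative run, with log2 ratios of 1.14 to 1.40, and no Notch gene that passed the filter in use was past 2-fold in U251 under any of them, although HES4 there ranged from -0.95 to -0.86. Without a filter, or with a mean FPKM of at least 0.1, NOTCH3 joined HES1 in U87 (2 genes), and 8 rather than 5 Notch genes were past 2-fold between the Control libraries, against 3 at a mean FPKM of at least 5. At that filter the median of the Notch genes in U87 was 0.49. NOTCH1 lost its place between the Control libraries with a pseudocount of 1 (-0.86). No Notch gene (0) differed between the lines with its whole interval beyond 2-fold. NOTCH2 in U87 changed sign with 75th percentile scaling, to 0.03, and with centring on the median or scaling to reads on genes, to 0.02. In TPM the NOTCH2 ratio in U87 stayed negative, at -0.03. In U251, 75th percentile scaling and scaling to reads on genes moved HES1 from 0.05 to 0.14 and NOTCH2 from 0.20 to 0.29. Both also moved the median of all tested genes in U251 from -0.03 to 0.05. The pathway genes past 2-fold in U251 were 3 with a pseudocount of 1 and 2 at a mean FPKM of at least 5, EGFL7 left them with 75th percentile scaling, and in U87 they were 2 with a pseudocount of 0.01 (EGFL7 and FABP7, at most 2 reads) and 1 in TPM (EGFL7).

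Over all genes the count past 2-fold, 1140 in U251 and 432 in U87, was 616 and 190 with a pseudocount of 1, 4963 and 4335 without a filter, 3727 and 2801 at a mean FPKM of at least 0.1, 473 and 83 at 5, 501 and 56 with the interval rule, and 700 and 96 for protein-coding genes. In U251, 435 genes were higher and 705 lower, against 551 and 578 with 75th percentile scaling and 551 and 576 scaled to reads on genes. No paired analysis was possible because each condition has 1 library.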
